A study of Homo sapiens with 4 samples.

Results

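The genes of the translation initiation and elongation factors were followed in BTG2-overexpressing MOLM13, an established human line of acute myeloid leukaemia. They were taken by name from the authors' deposited table: symbols that begin with EIF1 to EIF6, EEF1 or EEF2, without EIF2AK2, EEF1E1 and the pseudogenes named EEF1A1P or EEF1B2P. This gave 69 of 11597 listed genes, of which 64 are annotated as protein coding and 5 are pseudogenes or a non-coding transcript. MOLM13 cells received a lentivirus with the BTG2 cDNA (2 libraries) or, as the control, the same vector with no insert (2 libraries). Poly(A) RNA was collected 3 days later from both groups, which otherwise carry the wild-type genotype of the line. The vector drives its cDNA, puromycin resistance and ZsGreen from an EF1α promoter, a sequence that derives from the EEF1A1 gene and was present in both groups. The labels mention neither selection nor sorting of transduced cells. The stated question is the role of BTG2 in mRNA stability, and BTG2 is known as an adaptor of the CCR4-NOT deadenylase.

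Translation begins when the small ribosomal subunit, bound by eIF1, eIF1A, eIF3, eIF5 and the ternary complex of eIF2, GTP and initiator tRNA, is brought to the mRNA cap. The cap is held by eIF4F, made of the cap-binding protein eIF4E, the scaffold eIF4G and the helicase eIF4A, and the 4E-binding proteins compete with eIF4G for eIF4E. During elongation eEF1A delivers aminoacyl-tRNA, the eEF1B subunits recharge eEF1A with GTP, eEF2 moves the ribosome along, and eIF5A helps at slow peptide bonds. Several of these factors are made from 5′ TOP mRNAs, which start with a C followed by pyrimidines and whose translation and stability depend on growth signals through mTORC1.

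Single libraries were not analysed here, so the depth of each library is unknown, and each error is the authors' standard error (SE). Levels are the authors' mean normalized counts over the libraries, not corrected for length, and are compared between groups and not between genes. The level in each group was implied from that mean and the fold change, taking the mean as an equal average over both groups. It has no error of its own. All 11 fixed markers of myeloid leukaemia were listed in the authors' deposited table, among them SPI1, CEBPA, FLT3 and LYZ, with mean counts from 71.6 to 6277. In the authors' deposited table, 2 of these 11 rose and 3 fell at an adjusted p under 0.05, or 45.5% against 8.11% of all listed genes, and the part of such a shift in the factor genes was not tested. Of 9 markers of other blood lineages only NKG7 was listed, and of 5 stromal and epithelial ones only KRT8. BTG2 itself was 32.3-fold higher in the authors' deposited table.

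The factor genes moved in both directions, and most of them little. In the authors' deposited table, 6 of the 69 rose and 5 fell at an adjusted p under 0.05 over all listed genes. Nothing says that the libraries came from separate cultures, so the spread behind each p-value may be only technical, and less RNA per cell and fewer cells that express a gene cannot be told apart. The 11 calls are 15.9% of the factor genes, where 8.11% of all listed genes were called, 3.64% higher and 4.47% lower. Factor genes also had higher counts than most, which makes calls easier, since 52 of the 69 reached the median mean count, 151. Among those 52 the share called was 21.2%, against a background of 13.6% for listed genes of that range, 6.02% higher and 7.6% lower. The median log2 fold change over the 69 genes was 0.01, and over all listed genes 0.00. The genes that rose were EIF1, EIF2S3, EIF3CL, EIF4A2, EEF1D and EEF2, and those that fell were EIF3C, EIF4H, EIF4EBP1, EIF5A and EEF1A2. Fitted folds of the 11 ran from 0.648 for EEF1A2 to 1.59 for EIF4A2.

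**Figure D1:**
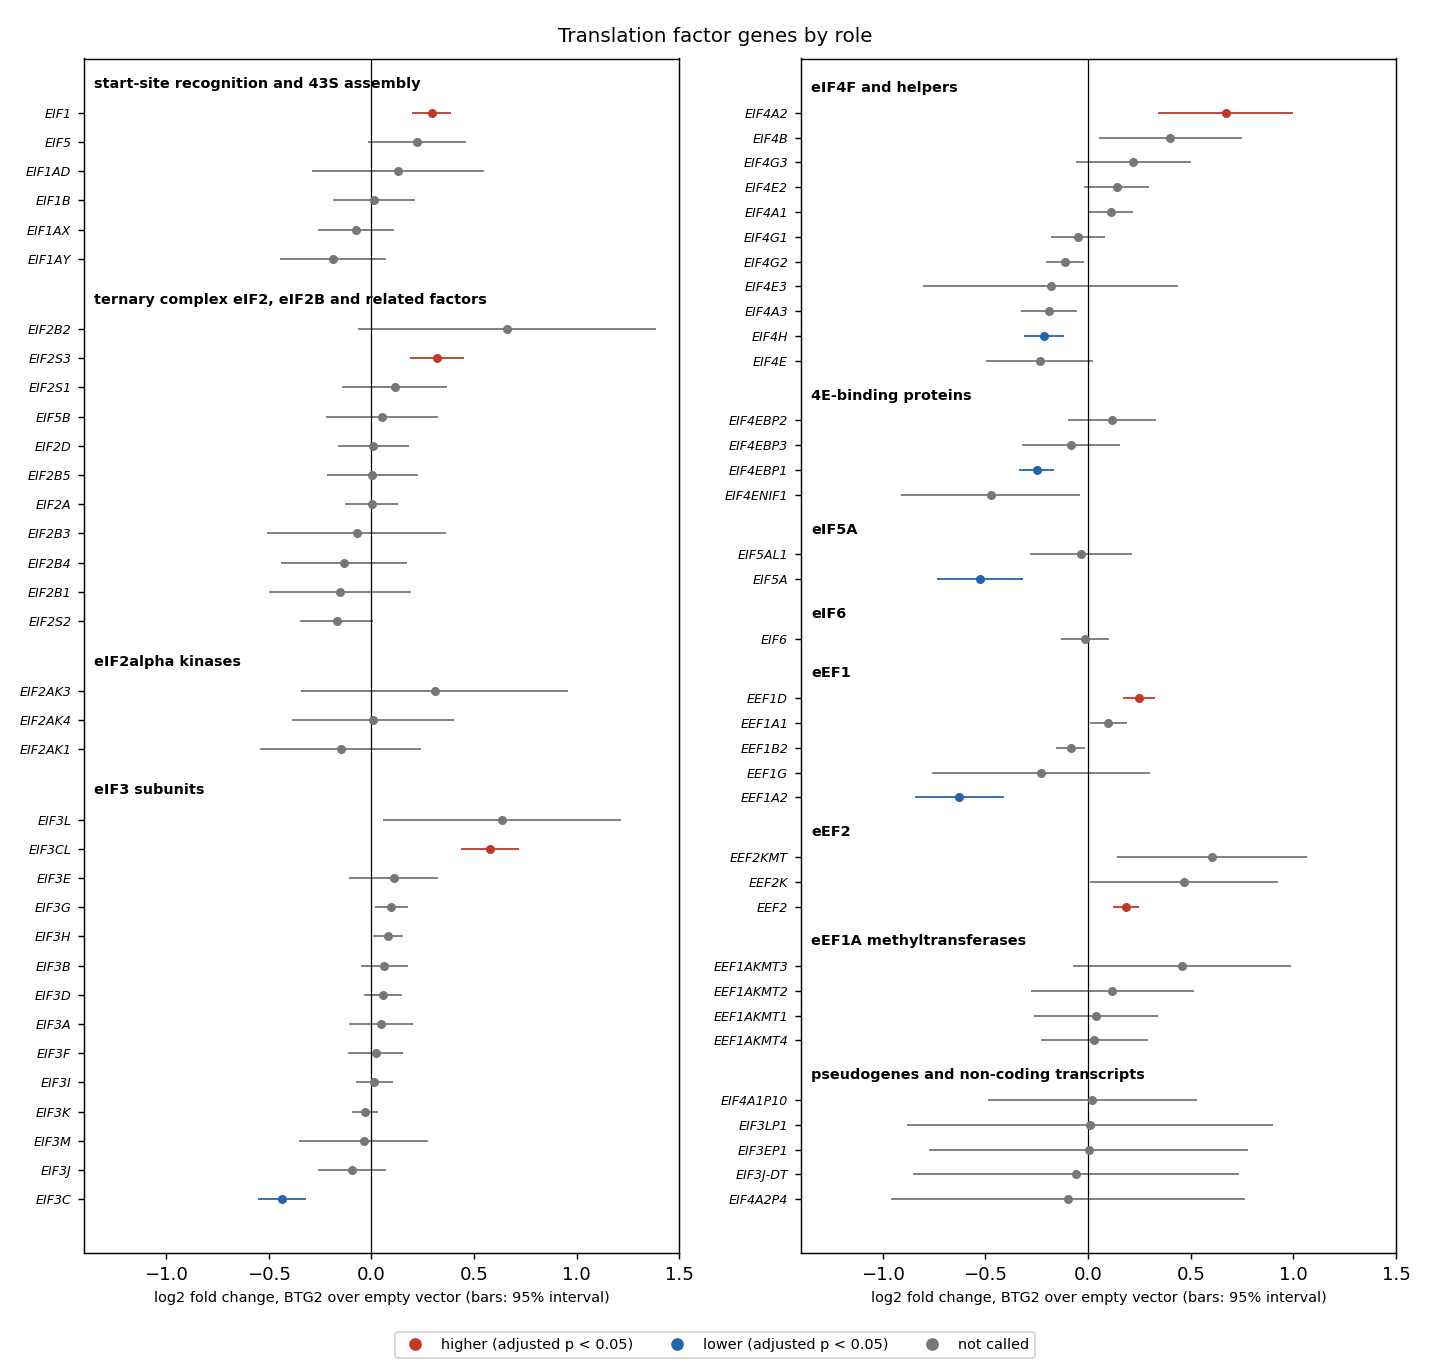
Log2 fold change of BTG2 over empty vector for each of the 69 factor genes, in blocks by role. Points are the authors' estimates, bars are 95% intervals from the authors' SE, and colour marks an adjusted p under 0.05. The 11 called genes lie from -0.63 to 0.67, and in the eIF3 block EIF3CL and EIF3C stand on opposite sides of 0.

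**Figure D2:**
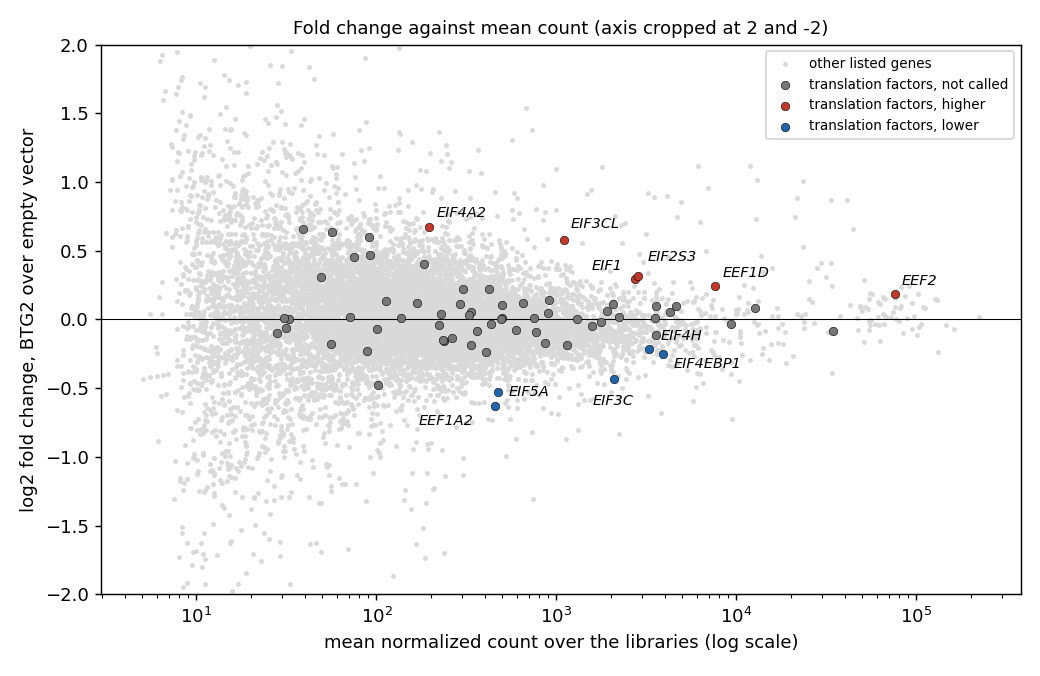
Log2 fold change of BTG2 over empty vector against the authors' mean normalized count (log scale) for all listed genes in grey and the 69 factor genes in colour. Called factor genes have mean counts from 196 for EIF4A2 to 75803 for EEF2, and none of the 17 factor genes below a mean count of 151 was called. Calls are rare there for all listed genes, since 790 of the 940 called genes reach that count. No result about the 17 is read from it.

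Among the factors that find the start codon, EIF1 rose. EIF1 guards the fidelity of start-site selection and lies on chromosome 17 from 41688885 to 41692668 on the plus strand in GENCODE release 29 on hg38. Its implied level was 3016 in BTG2 cells and 2462 in empty-vector cells. The log2 fold change of EIF1 was 0.29 (SE 0.05 and adjusted p = 2.09e-07) in the authors' deposited table, a rise of 22.5%. EIF1B, a close relative on another chromosome, stood at 0.01 (SE 0.10) in the authors' deposited table. EIF1AX and EIF1AY, both coding for eIF1A, had log2 fold changes of -0.07 (SE 0.09) and -0.19 (SE 0.13) in the authors' deposited table. Neither passed, nor did EIF5, which activates the GTPase of eIF2, at 0.22 (SE 0.12), in the authors' deposited table. EIF1AD, which is placed here by its name only, stood at 0.13 (SE 0.21) and did not pass in the authors' deposited table.

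Of the 3 subunits of eIF2, the one that binds GTP and initiator tRNA rose. This is eIF2γ, the product of EIF2S3 on the X chromosome from 24054716 to 24077971, plus strand. EIF2S3 had an implied level of 3166 in BTG2 cells and 2539 in empty-vector cells. In the authors' deposited table its log2 fold change was 0.32 (SE 0.07 and adjusted p = 6.96e-05). EIF2S1, which codes for the α subunit that stress kinases phosphorylate, stood at 0.11 (SE 0.13) and EIF2S2, for the β subunit, at -0.17 (SE 0.09) in the authors' deposited table. Neither passed the test, so within eIF2 only the γ subunit was called, and differences between subunits were not tested. EIF2S3B, an autosomal copy of EIF2S3, had no row under that name.

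The exchange factor eIF2B, which reloads eIF2 with GTP and is the target of the stress response, had 0 calls among its 5 subunits, too few genes to set against the 8.11% called of all listed genes. Their log2 fold changes ran from -0.15 for EIF2B1 to 0.66 for EIF2B2, which was at a mean count of 38.8 and an SE of 0.37, in the authors' deposited table. The kinases that phosphorylate eIF2α were not called either, and they too are too few to set against that share. EIF2AK1, the haem-regulated kinase, stood at -0.15 (SE 0.20), EIF2AK3, the kinase PERK of the endoplasmic reticulum, at 0.31 (SE 0.33), and EIF2AK4, the amino acid sensor GCN2, at 0.01 (SE 0.20) in the authors' deposited table. Further factors that place initiator tRNA or join the ribosomal subunits had small values. EIF2A had a log2 fold change of 0.00 (SE 0.07), EIF2D of 0.01 (SE 0.09) and EIF5B, the GTPase of subunit joining, of 0.05 (SE 0.14) in the authors' deposited table.

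The scaffold eIF3 was represented by 14 genes, of which EIF3CL rose and EIF3C fell. Apart from this pair and EIF3L, the 11 remaining subunit genes lay between -0.09 and 0.11 on the log2 fold change scale in the authors' deposited table, with a median of 0.05. EIF3H, the subunit gene of highest mean count at 12750, stood at 0.08 (SE 0.04 and adjusted p = 0.209) in the authors' deposited table. EIF3K stood at -0.03 (SE 0.03) at a mean count of 9350 in the authors' deposited table, and its 95% interval ran from -0.10 to 0.03. EIF3L had a log2 fold change of 0.63 but a mean count of 56.8 and an SE of 0.30, and did not pass (adjusted p = 0.213), in the authors' deposited table. The 12 subunit genes other than EIF3C and EIF3CL gave 0 calls by the authors' adjusted p, where 8.11% of all listed genes and 13.6% of the more abundant ones were called, and no result about these 12 is read from it. Of these, 3 had an unadjusted p under 0.05, all with positive values. Such a p was also found for 496 positive and 600 negative values among the 10657 listed genes not called.

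EIF3C and EIF3CL are near-identical genes on chromosome 16 for the same subunit, eIF3c, and their opposite values must be read together. EIF3C lies from 28688558 to 28735730 on the plus strand and EIF3CL from 28379579 to 28403879 on the minus strand. In GENCODE release 29 the longest coding sequences have 2742 and 2745 bases, with 0 substitutions, and differ only by 1 extra GAG codon in EIF3CL. Over the whole of these transcripts 3082 bases align with 0 substitutions, and EIF3C has 63 more bases at its 5′ end. The stretch that tells them apart is shown from coding base 858, with the extra codon in capitals; within the repeat its exact place is arbitrary.
EIF3C, chr16:28723245-28723271, plus strand: caagcgcctggatgaggaggaggagga
EIF3CL, chr16:28392032-28392061, minus strand: caagcgcctggatGAGgaggaggaggagga

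EIF3C had an implied level of 1775 in BTG2 cells, against 2400 in empty-vector cells. EIF3CL had one of 1313 in BTG2 cells, against 881 in empty-vector cells. The log2 fold changes were -0.44 (SE 0.06 and adjusted p = 7.56e-11) for EIF3C and 0.58 (SE 0.07 and adjusted p = 1.72e-13) for EIF3CL in the authors' deposited table. Added up, the pair came to 3088 in BTG2 cells and 3281 in empty-vector cells, a log2 ratio of -0.09. EIF3CL made up 42.5% of this sum in BTG2 cells and 26.8% in empty-vector cells. The table does not hold the covariance of both genes, so the sum has no error and no test. The sources used here do not give how reads were assigned to either gene, and its part in the opposite values was not tested.

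**Figure D3:**
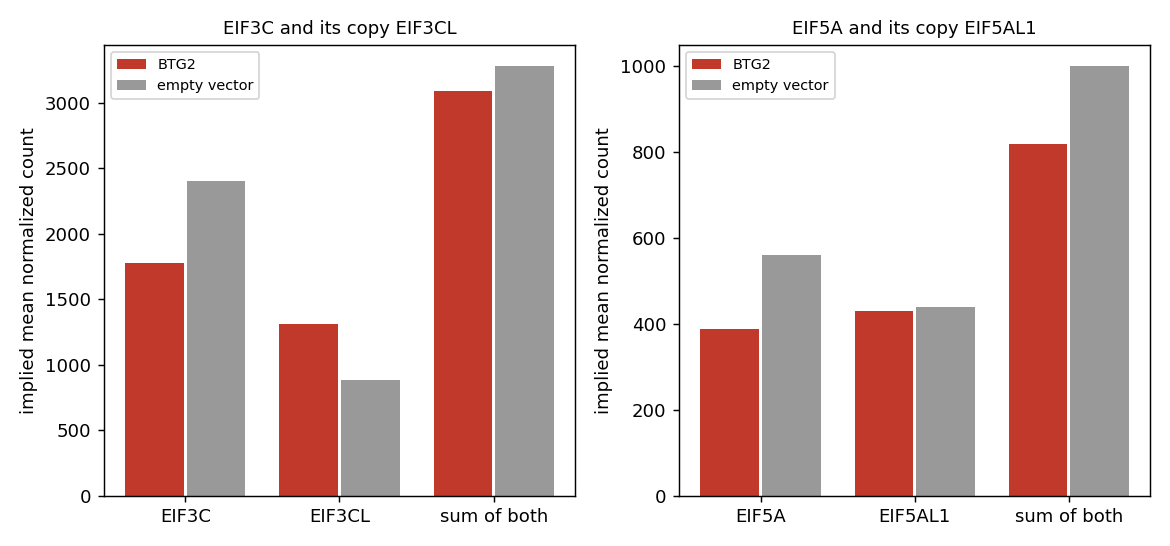
Implied mean normalized counts in BTG2 cells (red) and empty-vector cells (grey) for EIF3C with EIF3CL and for EIF5A with EIF5AL1, with the sum of each pair; bars start at 0 and have no error. The EIF3C pair sums to 3088 and 3281 although its members differ in opposite directions, while the EIF5A pair sums to 819 and 1001.

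In the cap-binding complex and its helpers, EIF4A2 rose and EIF4H fell, whereas the core subunits eIF4E and eIF4G were not called. EIF4A2 codes for an eIF4A helicase that in human cells has also been linked to the CCR4-NOT complex, and lies on chromosome 3 from 186783205 to 186789900, plus strand. Its implied level was 241 in BTG2 cells and 151 in empty-vector cells. At 0.67 (SE 0.17 and adjusted p = 0.0016), its log2 fold change was the highest of the 69 in the authors' deposited table. EIF4A1, its close paralogue, stood at 0.11 (SE 0.06 and adjusted p = 0.269) in the authors' deposited table, with a 95% interval up to 0.22, against one from 0.34 to 1.00 for EIF4A2. EIF4A3, which serves in the exon junction complex rather than in initiation, stood at -0.19 (SE 0.07) and just missed the limit (adjusted p = 0.0714) in the authors' deposited table.

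EIF4A2 carries 5 annotated small nucleolar RNA genes inside its span, of which SNORA63 was listed. SNORA63 stood at a log2 fold change of 3.79 (SE 1.26 and adjusted p = 0.0351) at a mean count of 7.97 in the authors' deposited table. Its exon overlaps 2.15% of the annotated exonic bases of EIF4A2 on the same strand, and its part in the rise of EIF4A2 was not tested. Small nucleolar RNA genes are also annotated inside EEF1B2, EEF2, EIF1AX, EIF3A, EIF4A1, EIF4G1, EIF4G2 and EIF5, and none of those had a row in the table.

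EIF4H, a stimulator of the eIF4A helicase on chromosome 7 from 74174245 to 74197101, fell. Its implied level was 3036 in BTG2 cells, against 3525 in empty-vector cells. The log2 fold change of EIF4H was -0.22 (SE 0.05 and adjusted p = 0.000392) in the authors' deposited table. EIF4B, a related stimulator, had a positive value of 0.40 (SE 0.18) that did not pass (adjusted p = 0.18) in the authors' deposited table. The cap-binding gene EIF4E stood at -0.24 (SE 0.13) and its relatives EIF4E2 at 0.14 (SE 0.08) and EIF4E3 at -0.18 (SE 0.32) in the authors' deposited table. Both scaffold genes EIF4G1 at -0.05 (SE 0.07) and EIF4G3 at 0.22 (SE 0.14) did not pass in the authors' deposited table. EIF4G2, which codes for a scaffold that lacks the eIF4E-binding site, stood at -0.11 (SE 0.05 and adjusted p = 0.142) in the authors' deposited table.

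The 4E-binding proteins hold eIF4E in check when mTORC1 is low, and EIF4EBP1 fell. EIF4EBP1 is also known as a target of the stress transcription factor ATF4. It had an implied level of 3561 in BTG2 cells and 4238 in empty-vector cells. In the authors' deposited table its log2 fold change was -0.25 (SE 0.04 and adjusted p = 8.75e-07), a fold of 0.84. EIF4EBP2 stood at 0.12 (SE 0.11) and EIF4EBP3 at -0.08 (SE 0.12), and neither passed, in the authors' deposited table. EIF4EBP3 shares 73.4% of its exonic bases with the listed readthrough gene ANKHD1-EIF4EBP3, so reads from that part of it cannot be told from those of that gene. EIF4ENIF1, the transporter that carries eIF4E into the nucleus, stood at -0.47 (SE 0.22 and adjusted p = 0.218) in the authors' deposited table.

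EIF5A, whose product carries the modified lysine hypusine, fell. The gene spans 7306999 to 7312463 on chromosome 17, plus strand, and has an expressed copy with a single-exon coding sequence, EIF5AL1, on chromosome 10 from 79512601 to 79516440. Over 465 aligned coding bases the pair differs at 5, which is 98.9% identity. A stretch of 30 coding bases holds 3 of the 5 differences, shown in capitals.
EIF5A, chr17:7309739-7309768, plus strand: gcCggccatgtaagatcgtCgagatgtctA
EIF5AL1, chr10:79512753-79512782, plus strand: gcTggccatgtaagatcgtGgagatgtctG

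The implied level of EIF5A was 389 in BTG2 cells, against 560 in empty-vector cells. That of EIF5AL1 was 430 in BTG2 cells and 440 in empty-vector cells. EIF5A gave a log2 fold change of -0.53 (SE 0.11 and adjusted p = 4.11e-05) and EIF5AL1 one of -0.03 (SE 0.13 and adjusted p = 0.959) in the authors' deposited table. Their sum was 819 in BTG2 cells and 1001 in empty-vector cells, a log2 ratio of -0.29. In this pair only EIF5A was called, and its sum too has no error. EIF5A shares 8.56% of its exonic bases with GPS2 on the opposite strand, which stood at -0.25 (adjusted p = 0.264) in the authors' deposited table. Whether counting used the strand is not stated. EIF5A2 had no row under that name. EIF6, which keeps the large ribosomal subunit apart until initiation, stood at -0.02 (SE 0.06), with an interval from -0.13 to 0.10, in the authors' deposited table.

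Among the elongation factors, EEF1D and EEF2 rose and EEF1A2 fell. EEF2, the translocase of the ribosome on chromosome 19 from 3976056 to 3985469, minus strand, had the highest mean count of the 69, 75803. Its implied level was 80701 in BTG2 cells and 70906 in empty-vector cells. The log2 fold change of EEF2 was 0.19 (SE 0.03 and adjusted p = 5.53e-07) in the authors' deposited table, a rise of 13.8%. EEF2K, the kinase that inactivates eEF2, stood at 0.47 (SE 0.23 and adjusted p = 0.266) in the authors' deposited table. EEF2KMT, which methylates eEF2, stood at 0.60 (SE 0.24 and adjusted p = 0.1) in the authors' deposited table. EEF2KMT shares 29.3% of its exonic bases with ALG1 on the opposite strand. EEF2K and EEF2KMT had mean counts under 100 and wide intervals, from 0.01 to 0.93 for EEF2K and from 0.14 to 1.07 for EEF2KMT.

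EEF1D, a subunit of the eEF1B exchange complex, had an implied level of 8292 in BTG2 cells and 6989 in empty-vector cells. Its log2 fold change was 0.25 (SE 0.04 and adjusted p = 2.71e-08) in the authors' deposited table. EEF1B2, another subunit of the same complex, stood at -0.09 (SE 0.04 and adjusted p = 0.138) at a mean count of 34323 in the authors' deposited table. The third subunit gene, EEF1G, stood at -0.23 (SE 0.27) in the authors' deposited table, at a mean count of only 88.6. A processed copy of EEF1G with 99.2% identity, AC008038.1, was listed at a mean count of 453 and a log2 fold change of 0.09 (SE 0.26) in the authors' deposited table. EEF1G and this copy summed to 549 in BTG2 cells and 534 in empty-vector cells, a log2 ratio of 0.04.

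The tRNA carrier eEF1A is coded by EEF1A1 in most tissues and by EEF1A2 in muscle and neurons, and EEF1A2 was the gene with the lowest value of the 69. EEF1A2 lies on chromosome 20 from 63488012 to 63499322, minus strand. Its implied level was 356 in BTG2 cells, against 550 in empty-vector cells. The log2 fold change was -0.63 (SE 0.11 and adjusted p = 7.49e-07) for EEF1A2 and 0.10 (SE 0.05 and adjusted p = 0.204) for EEF1A1 in the authors' deposited table. The intervals of both genes, -0.84 to -0.41 for EEF1A2 and 0.01 to 0.19 for EEF1A1, did not overlap, and the difference between the genes was not tested. EEF1A1 has 6 annotated copies of at least 95% identity, of which EEF1A1P5 and EEF1A1P6 were listed. Summed over all 3 listed genes the level was 4298 in BTG2 cells and 4000 in empty-vector cells, a log2 ratio of 0.10 as for EEF1A1 alone. The 3 listed copies of EEF1B2 had positive values, unlike EEF1B2 itself. EEF1B2P3 stood at 0.91 (SE 0.08 and adjusted p = 1.07e-29) at a mean count of 1479, and EEF1B2P6 at 1.25 (SE 0.28 and adjusted p = 0.000293) at a mean count of 90.5, in the authors' deposited table. EEF1B2P2 stood at 2.11 (SE 0.86 and adjusted p = 0.123) at a mean count of 8.56 in the authors' deposited table. For EEF1B2 the sum with these copies gave 35383 in BTG2 cells and 36419 in empty-vector cells, a log2 ratio of -0.04.

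The 4 listed enzymes that methylate eEF1A gave 0 calls, too few genes to set against the 8.11% called of all listed genes. EEF1AKMT1 stood at 0.04 (SE 0.15), EEF1AKMT2 at 0.12 (SE 0.20), EEF1AKMT3 at 0.46 (SE 0.27) and EEF1AKMT4 at 0.03 (SE 0.13) in the authors' deposited table. EEF1AKNMT had no row under that name. The 4 pseudogenes, among them EIF4A1P10 and EIF3EP1, and the divergent transcript EIF3J-DT lay between -0.10 and 0.02 in the authors' deposited table. Their mean counts ran from 28.0 to 71.3 and their SE had a median of 0.41, so that changes of moderate size were not detectable.

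For many of the 58 genes that were not called, the intervals from the authors' SE were narrow. Since the spread behind these SE may be only technical, they do not bound a change between separate cultures. In 39 of the 58 the 95% interval lay within 0.5 of 0 on the log2 scale, and in 18 it lay within 0.25. The other 19 had intervals that reached beyond 0.5, and all of these had mean counts of 234 or less. Of the 58, 12 had an unadjusted p under 0.05, 8 with positive and 4 with negative values. Among the 10657 not called of all listed genes, 496 had such a p with a positive value and 600 with a negative one.

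Transcript starts were compared because several factors are known 5′ TOP mRNAs. RefSeq promoter windows of 300 bases on GRCh38.p14, with 250 bases before the annotated start, were found for 51 of the 69 genes. A start was called a pyrimidine start where it was a C followed by at least 4 pyrimidines. At any of their annotated starts, this held for 12 of the 51 genes (23.5%) and for 8.1% of the 8670 coding listed genes with a window. Counted by single window it held for 4.07% of all 35116, a share not comparable with those counted by gene. The starts of the called genes EIF2S3, EIF4A2 and EEF2, of 4 known or likely TOP factors that were not called, and of 2 called genes with another start are shown. Each line has 5 bases before the start and 20 from it, with the pyrimidine run in capitals. Where a gene has several annotated starts, the one with the longest run is shown.
EIF2S3, chrX:24054951-24054975, plus strand: ccttcCTCTTTTggcaacatggcgg
EIF4A2, chr3:186783572-186783596, plus strand: gctgtCTTTTCagtcgggcgctgag
EEF2, chr19:3985444-3985468, minus strand: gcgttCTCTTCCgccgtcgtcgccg
EEF1A1, chr6:73521013-73521037, minus strand: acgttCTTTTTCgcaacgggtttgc
EEF1B2, chr2:206159890-206159914, plus strand: cgggtCCTTTTTCCTCTCTTCagcg
EIF4B, chr12:53006451-53006475, plus strand: cgggtCTTTTgcgttctctttccct
EIF3F, chr11:7987332-7987356, plus strand: gcctcCTTCTTTCTCgacaagatgg
EIF1, chr17:41688880-41688904, plus strand: cctctgccccagtcactgagccgcc
EIF4H, chr7:74174351-74174375, plus strand: tcaccctggttcctctcggagcgga

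Of the 12 genes with a pyrimidine start, 3 rose and 0 fell, or 25%, by the adjusted p of the authors' deposited table. Of the 39 with another start, 1 rose and 3 fell, or 10.3%. The lowest mean count of the 12 was 184 (EIF4B), above the median mean count of 151. Of listed genes in that range 13.6% were called, 6.02% higher. The 12 and the 39 were not matched for mean count, and no result is read from the 3 rises. The median log2 fold change was 0.04 with a pyrimidine start and -0.02 without one, and the difference was not tested. The other 9 genes with a pyrimidine start lay between -0.09 for EEF1B2 and 0.40 for EIF4B in the authors' deposited table. Across all coding listed genes with a window, those with a pyrimidine start had a median of 0.02 and 11.4% calls, 47 higher and 33 lower. Coding genes with another start had a median of -0.01 and 7.44% calls, 218 higher and 375 lower. Without the factors and the ribosomal proteins, 642 genes with a pyrimidine start had a median of 0.01, with 28 higher and 31 lower. Of the 9 factors long known as TOP mRNAs, EEF1D and EEF2 rose and 0 fell, or 22.2%, with a median of 0.10. Among the more abundant listed genes, to which 8 of the 9 belong, 13.6% were called, 6.02% higher. No result is read from so few genes. This list differs from the split by start, since EEF1D, EIF3E and EIF3H had no window and EEF1G had another start. No factor gene on chromosome 8, where EEF1D, EIF3E, EIF3H and EIF4EBP1 lie, had a window.

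**Figure D4:**
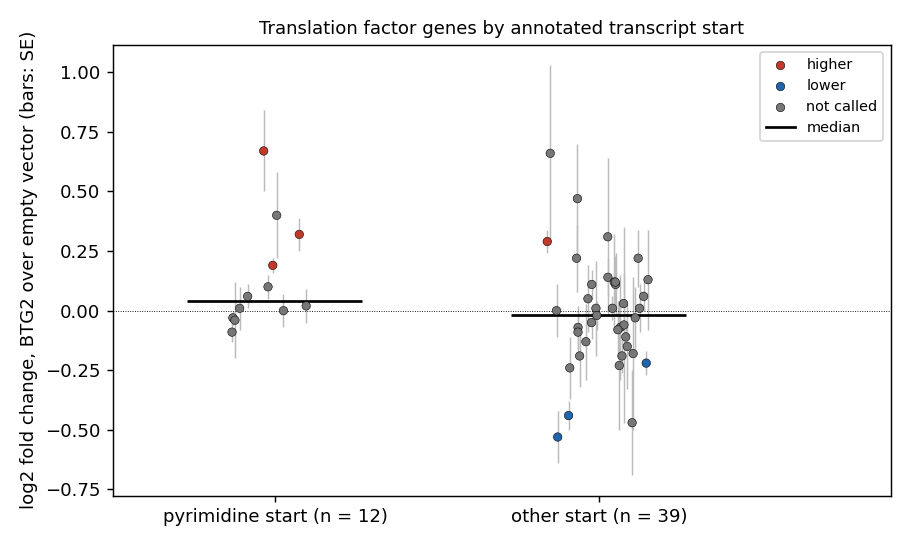
Log2 fold change of BTG2 over empty vector (bars: the authors' SE) for the 51 factor genes with a RefSeq promoter window. They are split by whether any annotated start is a C followed by at least 4 pyrimidines. Lines mark medians of 0.04 and -0.02, and both groups spread around 0.

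Motifs of regulators of these genes were searched on both strands of the same windows. The E-box CACGTG, which MYC binds, was present in any window of 12 of the 51 genes (23.5%) and of 13.2% of coding listed genes. Counted by single window, which again is not comparable, the share was 7.26%. Of the called genes it occurred in EIF4H only. The letters TGATGNAA, of the type that ATF4 binds, were found in 1 of the 51 genes, EIF4E3, and in 2.6% of coding listed genes. The letters TTGCATCA were found in 0 of the 51 and in 0.738% of coding listed genes. A match is a description of these letters and not a binding site, and several called genes, EIF4EBP1 among them, had no window here.

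Other genes of translation also moved both ways. Of 48 such genes 46 were listed, of which 4 rose and 5 fell, or 19.6%, with a median log2 fold change of -0.02 in the authors' deposited table. The background was 8.11% of all listed genes and 13.6% of those at or above the median mean count, where 36 of the 46 stood. PABPC1, the poly(A)-binding protein that bridges the tail to eIF4G, stood at 0.48 (SE 0.10), while PAIP1 and PAIP2, which bind it, stood at -0.39 (SE 0.11) and -0.22 (SE 0.07) in the authors' deposited table. The other rises were of the nuclear cap-binding subunit NCBP2 at 0.34 (SE 0.10), the initiation ATPase ABCF1 at 0.53 (SE 0.11) and the TOP transcript TPT1 at 0.15 (SE 0.04) in the authors' deposited table. Further falls were of the reinitiation factor DENR at -0.25 (SE 0.08), SBDS, which helps release eIF6, at -0.37 (SE 0.12), and the valyl-tRNA synthetase VARS1 at -0.24 (SE 0.05) in the authors' deposited table.

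Several regulators and partners showed 0 calls in the authors' deposited table, where 8.11% of all listed genes were called. These were the 5 listed release and recycling factors, all with negative values and a median of -0.11, and the 8 genes that make hypusine or diphthamide, the modifications of eIF5A and eEF2, with a median of 0.24. The 9 genes of mTORC1, the MNK kinases and regulators at the cap had a median of 0.08, and the 5 regulators of eIF2 phosphorylation one of -0.06. An unadjusted p under 0.05 was found for 1 release factor gene and for 1 gene of the mTORC1 group, and for 0 genes of the other sets. No result is read from these few genes.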

How the data were processed

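Per the labels' protocols, poly(A) RNA was enriched from total RNA, made into libraries with a directional short-fragment kit and read in pairs on a NovaSeq X. The title speaks of long reads instead, and the sources used here do not settle which gave the values. Per the submitters' processing notes, the aligner minimap2 and the build hg38 are named, with no role. No source used here names the program, the normalization or the filter.

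The authors deposited 1 table of BTG2 against empty vector with 11597 genes and 6 numeric columns. Its mean column is a never negative signal, the mean normalized count pooled by the authors. Fold changes and SE are on the log2 scale as deposited, positive where BTG2 is higher. The deposited score equals the fold change over its SE within 2.72e-07. Adjusting each deposited p-value by Benjamini-Hochberg over all listed genes gave the deposited adjusted values within 1.48e-06. A gene was called at an adjusted p under 0.05, and no test was added.

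The factor genes and all lists were chosen with earlier results of these data known. Named are all called factor genes, the 2 of highest mean count in each role group, and others given for completeness. Intervals at the 95% level are normal. Copies are other GENCODE 29 genes whose transcripts match at least 50% of a coding sequence at 95% identity or more (BLAST 2.17.0). This held for 20 of the 69 genes, of which 9 had a listed copy. Promoter windows and starts came from RefSeq (GRCh38.p14), and gene positions from GENCODE 29. The code that adjusts p-values and makes calls was checked on simulated fold changes with the deposited SE. Computation used Python 3.11.15 with pandas 2.3.3 and scipy 1.17.1.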

Additional observations from a re-analysis of the deposited data

How the results depend on the processing

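The 6 rises and 5 falls among the factor genes kept these counts under an empirical null with a scale of 1.25. Of the 11597 listed genes, 471 were called under this null, 209 of them higher, against 940 as deposited, 422 of them higher. The counts of factor genes were also kept at an adjusted p limit of 0.01, after recentring on the median of all listed genes, and with coding members alone. This p limit, this recentring and the coding set could hardly change the counts. The highest adjusted p of a called gene was 0.0016 (EIF4A2), that median was 0.00, and all called genes are coding. At a limit of 0.1, and with the adjustment over genes that reach the median mean count, the counts were 6 higher and 6 lower, with EIF4A3 the added fall. A minimum absolute log2 fold change of 0.3 left 3 higher and 3 lower. Without genes that have a copy of 95% identity or more, 3 were higher (EEF1D, EEF2 and EIF4A2) and 3 lower (EEF1A2, EIF4EBP1 and EIF4H), since EIF1, EIF2S3, EIF3C, EIF3CL and EIF5A left the set. At 90% identity, a limit chosen after seeing the data, 2 were higher (EEF1D and EEF2) and 2 lower (EEF1A2 and EIF4EBP1). Recentring on the median of the more abundant genes, -0.03, also chosen after seeing the data, gave 8 higher and 5 lower, with EIF3G and EIF3H added. After that recentring 933 of all listed genes were called. For the other settings the count over all listed genes is not given here. The median over the factor genes ranged from 0.01 to 0.04 over these settings. A further check took the 27 genes that were called or had the 2 highest mean counts of their role group. The settings were the adjustment over genes that reach the median mean count, recentring on all listed genes and the empirical null. Under these 3 settings 77 values were computed, and in all 77 the call was as in the main result. EIF4A3, named above, was not among the 27, and its call changed under the first of these. With pyrimidine runs of at least 6 and 7 bases, limits chosen after seeing the data, the median of such factor genes was 0.02 and 0.01.

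No paired analysis was possible because the table holds no values per library, and for the same reason no library was left out in turn. Depth limits the genes of low mean count most: the median SE was 0.41 for the pseudogenes and the non-coding transcript and 0.11 over all 69 genes.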

Other observations

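The factors of mitochondrial translation, a list drawn up after seeing the data, are separate from the cytosolic ones. Of 11 such genes, all listed, 2 rose and 0 fell by adjusted p in the authors' deposited table, or 18.2% against 8.11% of all listed genes. Of the 11, 9 reached the median mean count, and 13.6% of listed genes of that range were called, 6.02% higher. No result is read from these 2 calls. TUFM, the mitochondrial counterpart of eEF1A, stood at 0.33 (SE 0.11 and adjusted p = 0.0248) in the authors' deposited table. MRRF, the mitochondrial ribosome recycling factor, stood at 0.68 (SE 0.15 and adjusted p = 0.000191) in the authors' deposited table. The other 9 had log2 fold changes from -0.26 for MTRFR to 0.41 for MTRF1 and did not pass in the authors' deposited table.

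EIF2AK2, the kinase PKR that responds to double-stranded RNA, stood at 0.11 (SE 0.17) and EEF1E1, a scaffold of the synthetase complex, at -0.16 (SE 0.10) in the authors' deposited table. Neither passed the test.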
